A study of Mus musculus with 16 samples.

Results

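The replication-dependent histone genes encode the core histones H2A, H2B, H3 and H4 and the linker histone H1 that are made while DNA is copied. They were examined in cerebral cortex of mouse embryos at embryonic day 15.5. Members were all protein-coding genes whose symbol in the GENCODE annotation of GRCm38 begins with Hist1h, Hist2h, Hist3h or Hist4h and that had at least 1 count. This gave 54 genes of 51912 listed, out of 65 listed protein-coding histone symbols. The other 11 were listed at 0 in all mice, which need not mean absence, since reads shared with a near copy can be lost. The members comprised 6 H1, 12 H2A, 12 H2B, 11 H3 and 13 H4 genes.

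The study asked how loss of Knl1 (Casc5), a kinetochore scaffold needed for chromosome attachment in mitosis, alters the developing cortex with and without Trp53, the gene for the tumour suppressor p53. Control mice (ctrl, n = 7) were labelled Casc5 wild type (5 mice) or Casc5 heterozygous (2 mice). The conditional knockout (cKO, n = 4) was hGFAP-Cre Casc5 conditional KO, and the double knockout (dKO, n = 4) was hGFAP-Cre Casc5/Trp53 double conditional KO. In both knockouts Cre recombinase came from a transgene under the human GFAP promoter, which is active in cortical progenitors and not in every cell of the tissue, so cells of other lineages keep their alleles. The labels do not say whether control mice carried Cre. Emx1, a transcription factor of the cortex, had counts in all 15 mice. The labels also gave 4 litters and 3 batches. Litter 1 held ctrl 2 and 6 and cKO 5 and 7. Litter 2 held ctrl S1 and S3 and cKO S2. These mice were in batch 1, apart from S1 in batch 2. Litter 3 held ctrl T3, T4 and T5 and dKO T2 and T8. Litter 4 held cKO F3 and dKO F1 and F7, and litters 3 and 4 made up batch 3.

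Histone messages of this kind are the main metazoan mRNAs that end without a poly(A) tail. Their 3' end is formed by cleavage just after a conserved stem-loop, which is bound by the stem-loop binding protein Slbp and, with the help of the U7 small nuclear ribonucleoprotein, processed in the same nuclear bodies where Npat activates histone transcription. The messages accumulate in S phase and are degraded when DNA replication stops, so in developing cortex they are found mostly in dividing progenitors. The libraries were made from total RNA after removal of ribosomal RNA and were primed with random hexamers, so no step selected for poly(A).

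The stem-loop is shown first because it is the feature that the members share and that the choice by symbol did not use. A histone stem-loop of 16 bases was found in the GENCODE transcripts of 38 of the 54 members, 21 to 54 bases after the stop codon. In 12 members the annotated transcript ended within 2 bases of the stop codon, and 4 members (Hist1h1a, Hist1h2bc, Hist2h2be and Hist2h3b) had a longer 3' UTR in which it was not found. There were 8 distinct stem-loops. The sites below are the highest-level member per kilobase for each, written 5' to 3' on the gene's strand with the stem-loop in capitals and 5 bases on each side.
Hist1h1e: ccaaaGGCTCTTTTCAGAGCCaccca
Hist1h4d: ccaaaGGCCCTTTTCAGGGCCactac
Hist1h2bb: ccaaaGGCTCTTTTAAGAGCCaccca
Hist2h4: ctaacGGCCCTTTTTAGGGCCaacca
Hist1h4b: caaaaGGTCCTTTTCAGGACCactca
Hist1h4a: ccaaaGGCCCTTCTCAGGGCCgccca
Hist1h3g: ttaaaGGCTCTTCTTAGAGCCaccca
Hist2h2ac: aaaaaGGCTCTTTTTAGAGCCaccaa

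The form of Hist1h1e (GRCm38 chr13:23621777-23621802, minus strand) was the most frequent and was shared by 18 members of the H1, H2A, H2B and H3 classes. The form of Hist1h4d (chr13:23581945-23581970, plus strand) was found in 7 members, all of them H4 genes. Hist1h2bb (chr13:23747198-23747223, plus strand) represented 6 members. The forms of Hist2h4 (chr3:96262934-96262959, minus strand) and Hist1h4b (chr13:23757361-23757386, plus strand) had 2 members each. The forms of Hist1h4a (chr13:23760795-23760820, minus strand), Hist1h3g (chr13:23535884-23535909, plus strand) and Hist2h2ac (chr3:96220413-96220438, minus strand) had 1 member each. The forms of Hist1h4d, Hist2h4, Hist1h4b and Hist1h4a were carried by H4 genes and by no member of another class. Annotated transcripts ran more than 100 bases beyond the stem-loop in 20 members and by 1153 (Hist1h1e) to 4884 bases (Hist1h1d) in 6 of them. Counts in those models can therefore include RNA that was not ended at the stem-loop.

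The genes lay in few places. The Hist1 cluster held 46 members in 2 stretches of chromosome 13, 18 in chr13:21715763-22043676 and 28 in chr13:23531050-23764406. The Hist2 cluster held 6 members (chr3:96219865-96269141), and Hist3h2ba (chr11:58948920-58949533) and Hist4h4 (chr6:136801553-136804415) stood alone. An H2A and an H2B gene faced each other head to head in 9 pairs, with 175 to 301 bases between their start sites.

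Because many of these genes are near copies, counts of single members are uncertain to different degrees. The median share of a member's 50-base windows that occurred in no other GENCODE transcript was 98.9% for H1 genes, 60.5% for H4, 53.1% for H2B, 39.6% for H3 and 34.0% for H2A. It was under 50% for 26 of the 54 members and 0% for Hist2h3b, whereas 4 members were unique throughout. Reads that fall in shared windows can be lost or placed on a copy. A further 11 H2A members have an annotated miRNA model on the other strand, which together held 50 counts. Hist1h1e and Hist1h2be overlap on the same strand.

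Total counts per mouse ranged from 399832 to 8800987. Every cKO mouse (4178461 to 8800987) was sequenced more deeply than every ctrl mouse (399832 to 3266227), and the dKO mice spanned 552186 to 5396803. A total of 3 counts corresponds to a level between 0.341 and 7.50 CPM before scaling, so a 0 in a shallow library leaves room for a level that a deep one would detect. Here CPM is the counts-per-million value over a library's summed gene counts, and for all levels below it is scaled by TMM, which sets libraries to a shared level of most genes. Intervals cover the error of the fit. Knl1 was counted over the whole gene, and its CPM was 48.7 to 80.0 in ctrl, 50.004 to 80.4 in cKO and 33.4 to 58.2 in dKO, so these counts do not separate the genotypes (adjusted p = 1 for both knockouts, edgeR likelihood ratio test).

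The 54 members together held 33297 counts, or 0.0497% to 0.115% of a mouse's counts. Between 38 and 52 of them were detected in a mouse, and 31 were detected in all 15. At the depth of the shallowest mouse, 34.3 to 42.2 members would be expected, so part of the range remained at equal depth. The messages were unevenly spread, with 5 members holding 46.2% of all histone counts and 11 members holding fewer than 30 counts each.

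Per kilobase of exon, the highest level was that of Hist1h2ak, an H2A gene of the Hist1 cluster, with a mean of 183 ± 47.7 CPM per kilobase (SD, n = 15). Hist2h2ac, an H2A gene of the Hist2 cluster, followed with 88.6 ± 21.6, and Hist1h4k, an H4 gene, with 87.1 ± 28.7. Hist1h2ak was above Hist2h2ac in 15 of 15 mice. Below them came the linker histone genes Hist1h1e (76.7 CPM per kilobase) and Hist1h1b (65.7), the H2B gene Hist1h2bb (63.3), Hist1h2ab (54.6), Hist1h2bj (44.0), Hist1h4d (40.5) and Hist1h2af (31.4). Of these neighbours no pair differed in mean by more than the SD of its difference, and the higher of a pair was above the next in 9 to 11 of the 15 mice. These 10 members held 58.6% of the histone counts. No H3 gene was among them. The order rests on annotated exon length. The model of Hist1h2ak ends at the stop codon, whereas that of Hist1h1e runs 1153 bases past its stem-loop. Own 50-base windows were 43.0% for Hist1h2ak, 45.0% for Hist2h2ac, 28.5% for Hist1h4k and 68.0% for Hist1h1e. The places of these members, including the first, are therefore uncertain.

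**Figure D1:**
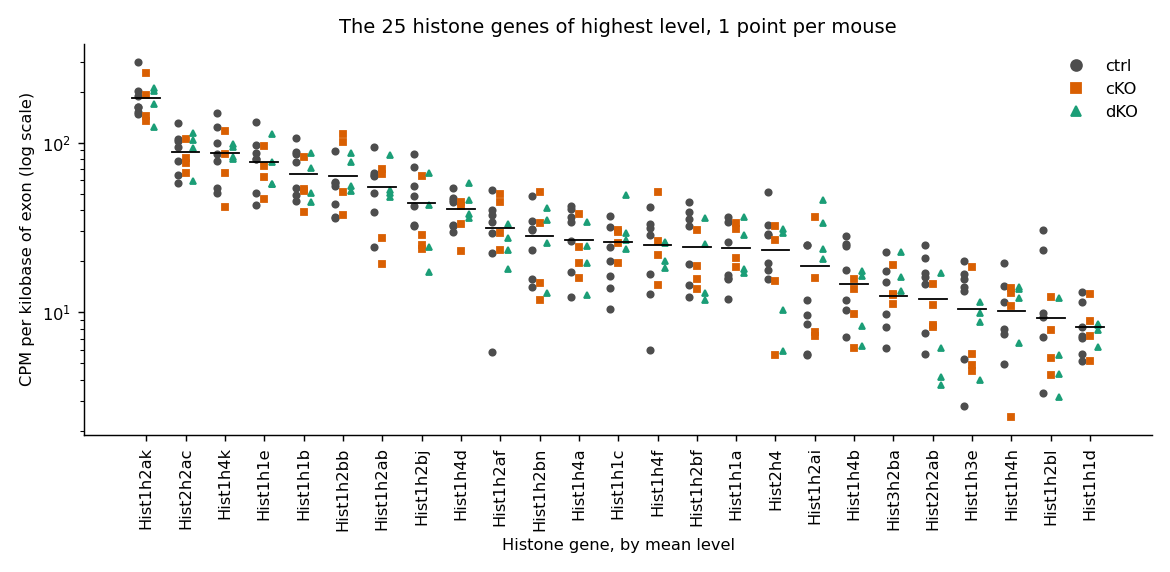
Level per kilobase of exon (CPM per kilobase, log axis) of the 25 members with the highest mean. Each point is 1 mouse, coloured by group, the bar is the mean over 15 mice, and mice at 0 are not drawn; Hist1h2ak lies highest at a mean of 183 and Hist2h2ac follows at 88.6.

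Hist1h2af, whose 50-base windows were unique for 6.00%, is another member whose place in this order is uncertain. Of the lone members, Hist3h2ba, an H2B gene, was at 12.5 CPM per kilobase (344 counts in all), rank 20 of the 54 members. Hist4h4 was lower, at 2.46 (323 counts) and rank 39, over an annotated transcript that runs 2445 bases past its stem-loop. Hist3h2ba was at 0 in 2 mice and Hist4h4 in none.

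Summed over all members, the level was 833 ± 194 CPM in ctrl (SD, n = 7), 758 ± 195 in cKO (n = 4) and 800 ± 152 in dKO (n = 4). The ctrl mice lay between 601 and 1141 with a median of 819. The cKO mice were at 535 (mouse 5), 722 (7), 1009 (S2) and 765 (F3), and the dKO mice at 734 (T2), 949 (T8), 897 (F1) and 618 (F7). The ranges of the 3 groups overlapped over most of their width, and the differences between their means were below the SD of any group. In bulk tissue, fewer cells of a type and less RNA per cell cannot be told apart, so a summed level describes the tissue and not a cell.

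H1 messages made up the largest class by counts, 33.7% to 42.6% of the histone level in a mouse. H2A took 20.1% to 26.6%, H4 15.5% to 23.7%, H2B 11.4% to 18.1% and H3 2.35% to 6.69%. Class means were 323, 300 and 320 CPM for H1 in ctrl, cKO and dKO. They were 186, 174 and 184 for H2A, 113, 111 and 106 for H2B, 35.7, 28.2 and 30.8 for H3, and 176, 145 and 158 for H4. By counts, H1 was the largest class and H3 the smallest in each of the 15 mice, and in each class the 3 group means were closer than the range of the mice. These shares were not divided by gene length. Reads in windows shared between copies can also be lost. The median share of a member's own 50-base windows was 98.9% for H1, 39.6% for H3 and 34.0% for H2A. The part of length and of shared windows in the order of the classes was not tested.

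**Figure D2:**
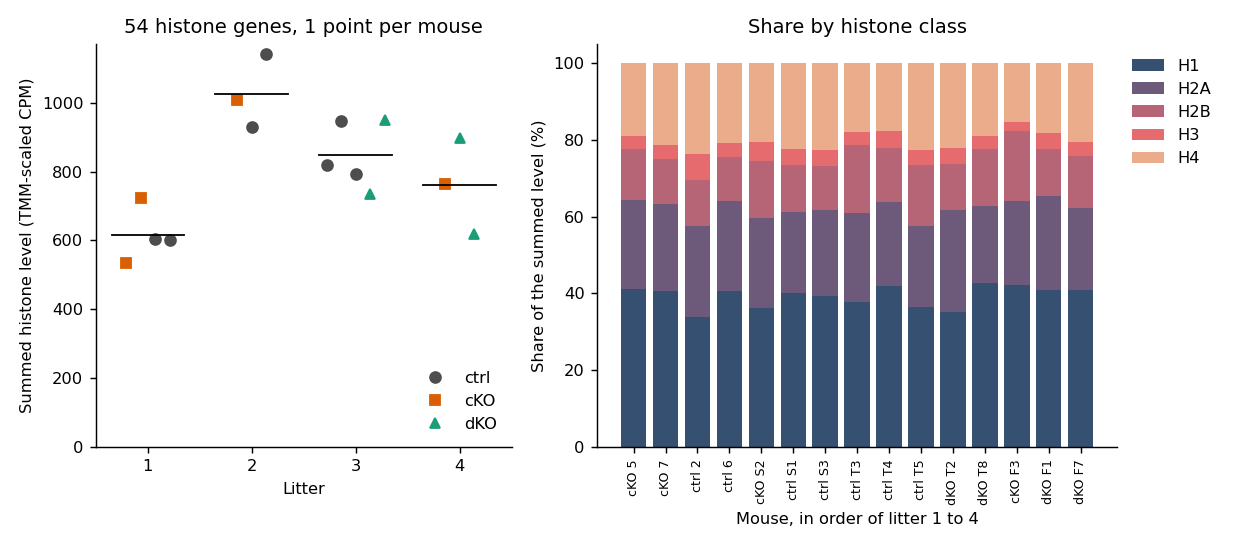
Left, summed level of the 54 members (CPM) in each mouse by litter, coloured by group, with a bar at the litter mean; right, the share of each histone class (percent) in each mouse. Litter 2 mice lie between 928 and 1141 and litter 1 mice between 535 and 722, while H1 is the largest class by counts in every mouse.

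The first comparison asked whether loss of Knl1 moved histone messages. No member passed an FDR of 0.05 in cKO against ctrl (0 of 53 with a count), where 0.322% of 25764 genes were called. At an unadjusted threshold of 0.05 the count was again 0, against 9.47% of all genes. DESeq2 and edgeR's quasi-likelihood test also called 0, as did the fits within batch 1, with batch as a term and with litter as a block. The median log2 fold change of the members was -0.20, beside 0.01 over all genes, and 17 of 53 lay above 0. The lowest class median was that of H4, at -0.38, with 11 of 13 genes below 0. For the other classes it was -0.12 (H1), -0.09 (H2A), -0.02 (H2B) and -0.19 (H3). These medians are descriptions, and no test was made of them.

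The members nearest to a difference showed how small it was beside the spread. Hist1h2bb, with 18.4, 28.0 and 45.2 CPM as the lowest, median and highest ctrl mouse, had 19.1, 26.0, 51.5 and 57.1 CPM in the cKO mice 5, 7, S2 and F3. Its log2 fold change was 0.47 (SE 0.28). The cKO mice thus fell into a low and a high pair, of which the low pair came from litter 1. Hist1h1b, the linker histone H1.5, had 33.6, 57.0 and 79.4 CPM in ctrl and 29.0, 39.8, 60.7 and 38.4 in cKO, a log2 fold change of -0.38 (SE 0.22). Hist1h2bj was at 14.9, 22.6 and 39.7 in ctrl and at 11.6, 13.3, 29.4 and 10.9 in cKO (-0.49, SE 0.29). With litter as a block its fold change was 0.0707, of the opposite sign. In each of these genes the groups overlapped, and the adjusted p was 1 (edgeR likelihood ratio test).

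Hist1h2bf (-0.52, SE 0.32; 0.0320 within batch 1) and Hist1h2bc (0.59, SE 0.38) had wider errors. For Hist1h3b, at 0 in 6 of 7 ctrl mice and a mean of 0.533 CPM in cKO, the depth of the ctrl libraries cannot show a difference. Among the 10 highest members, fold changes ran from -0.49 to 0.47 and their 95% intervals from -1.05 to 1.01 on the log2 scale, so the intervals include changes of about that size in a single gene. Leaving out cKO S2 gave 2 calls, Hist1h3e (-1.32, adjusted p = 0.0461) and Hist1h2bj (-0.92, adjusted p = 0.0287, same edgeR test), both lower in the other cKO mice. S2 was the only cKO mouse of litter 2, whose ctrl mice stayed in that fit. Litter means of Hist1h3e were 7.26, 13.8, 7.65 and 7.27 CPM for litters 1 to 4. The share of all genes called without S2 is not given here, so the 2 calls are not read as an excess.

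In dKO against ctrl 0 of 54 members were called, where 0.101% of 25669 genes were. At the unadjusted threshold 3 members were higher and 1 was lower, against 6.72% of all genes. The median log2 fold change was -0.15 beside 0.04 over all genes, with 21 of 54 above 0. DESeq2, the fit within batch 3, the batch term and the litter block gave 0 calls too. Class medians lay between -0.18 (H3) and -0.02 (H2B).

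Hist1h2ai, an H2A gene, had the smallest p among the members of this comparison. Its level in ctrl mice ran from 2.22 over a median of 3.76 to 9.77 CPM. In the dKO mice it was 13.3 (T2), 9.24 (T8), 18.1 (F1) and 8.15 (F7), a log2 fold change of 1.12 (SE 0.41, adjusted p = 0.916, edgeR). Only ctrl S1 and S3 reached the level of the lower dKO mice, and the gene came to 14.3 CPM in cKO F3, the litter mate of F1 and F7. Hist1h1c, the linker histone H1.2, was at 34.2 ± 14.9 CPM in ctrl and 50.2 ± 18.0 in dKO (0.50, SE 0.25), with overlap.

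On the lower side, Hist2h4, the H4 gene of the Hist2 cluster, was at 25.7, 46.7 and 83.0 CPM in ctrl. The dKO mice were split, with 48.1 (T2) and 50.8 (T8) in litter 3 and 16.9 (F1) and 9.70 (F7) in litter 4, and the log2 fold change was -0.66 (SE 0.34, adjusted p = 1, edgeR likelihood ratio test). The quasi-likelihood test called it (-0.91, adjusted p = 0.00334). With litter as a block the fold change was 0.27, of the opposite sign. Hist1h4a (-0.64) and Hist1h2af (-0.58) were also lower in the mean, with overlap, and both turned with the litter block, to 0.25 and 0.0029. Hist2h3c2 had 5 counts in all, 1 in F1, 2 in F7 and 2 in T2, and no fold is given.

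The contrast of cKO against dKO asks what Trp53 adds when Knl1 is lost. Here 0 of 54 members were called, where 0.103% of 26283 genes were, and 2 members were higher and 2 lower at the unadjusted threshold, against 8.22% of all genes. DESeq2 and the quasi-likelihood test called 0. The members split evenly around 0, with 27 of 54 above and a median of -0.0020. Hist1h4c, an H4 gene, was the only member whose groups did not overlap, a pattern that 0.833% of all genes showed in the same direction. It was at 2.44 (5), 4.25 (7), 4.55 (S2) and 3.86 (F3) CPM in cKO and 4.97 (T2), 8.32 (T8), 6.94 (F1) and 4.85 (F7) in dKO, a log2 fold change of -0.65 (SE 0.33, adjusted p = 1, edgeR). Hist1h2af (0.66) and Hist1h2bg (0.94) were higher in the mean in cKO, and Hist1h2ai (-0.86) lower. All dKO mice were in batch 3, and F3 was the only cKO mouse there, the others being in batch 1. Within batch 3 the value of Hist1h2af was -0.00628. That of Hist1h2ai turned to 0.25 within batch 3, to 0.25 with a batch term and to 0.18 with the litter block. Hist1h2ad had 15 counts in all. This contrast and the former ones share their cKO or dKO mice, as those against ctrl share the ctrl mice.

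**Figure D3:**
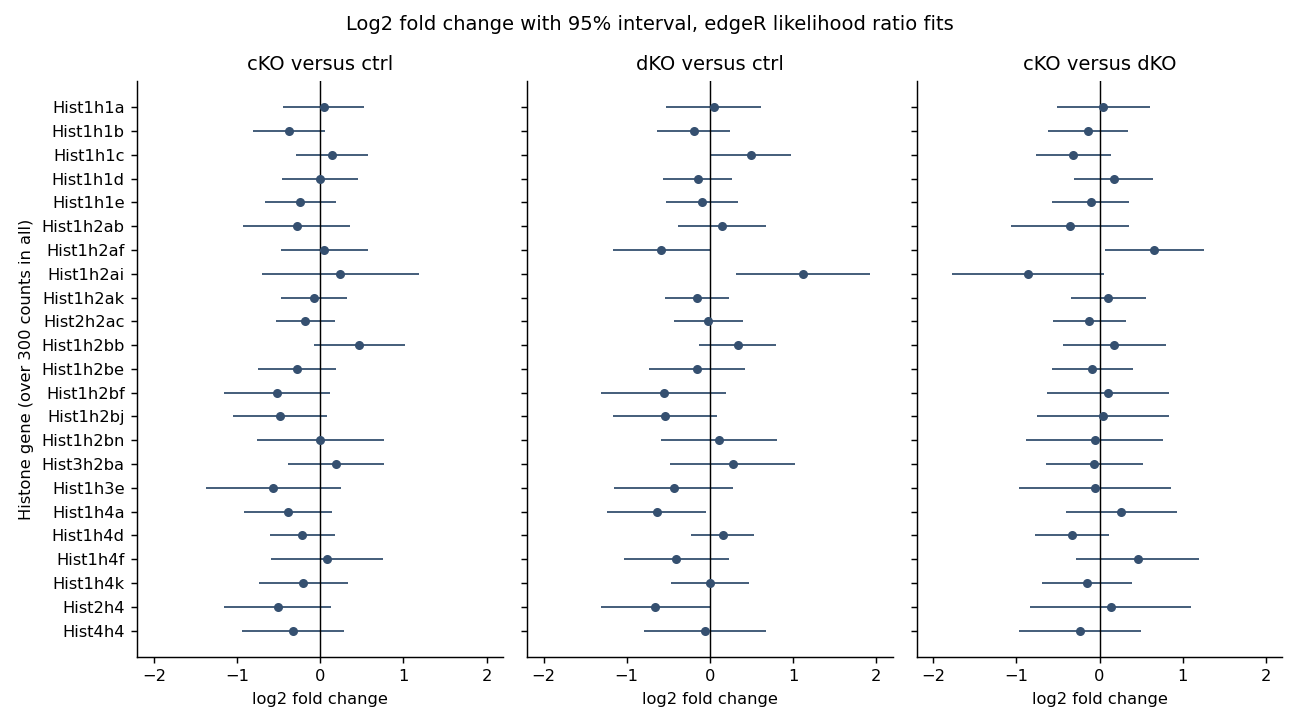
Log2 fold change with its 95% interval of the members with more than 300 counts, in cKO against ctrl, dKO against ctrl and cKO against dKO (3 panels, a line at 0). No member was called at an FDR of 0.05 in any panel.

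Genes that work with histone mRNA or mark its cells were read beside the members. Of 20 genes for histone transcription and 3' end processing, 0 were called in any of the 3 genotype comparisons, with medians of 0.04 (cKO against ctrl), 0.02 (dKO against ctrl) and 0.04 (cKO against dKO). Slbp, Npat and Casp8ap2 were among the genes without a call. Of 11 replication-independent histone variants, which are made outside S phase too, 0 were called (medians -0.21, -0.04 and -0.02), and H2afz, the gene for the variant H2A.Z, was at 24.4 ± 6.14 CPM in ctrl, 20.03 ± 7.45 in cKO and 17.7 ± 3.96 in dKO. The 20 histone chaperones had 0 calls, and the 27 measured genes of S phase and proliferation also had 0, with medians of -0.13 and -0.16 against ctrl. Mki67, a marker of cycling cells, was at 266 ± 62.3 CPM in cKO and 261 ± 82.8 in ctrl (log2 fold change 0.01). In the same comparison Cdkn1a, a p53 target that halts the cell cycle, was higher (1.70, adjusted p = 0.00366, edgeR), and the intermediate progenitor genes Eomes (-1.13) and Neurog2 (-1.19) were lower. Interneuron genes Gad1 and Erbb4 were higher (0.56 each) and the choroid plexus gene Ttr was lower (-5.61), as were the cortical genes Emx1 (-0.84) and Lhx2 (-0.69). The erythroid gene Hba-a2 was higher in dKO than in ctrl (1.98). Between cKO and dKO, Cdkn1a was higher (2.01) and Ttr lower (-5.02) in cKO. Their part in the histone values was not tested.

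The litters differed in histone messages. This comparison was chosen after the values had been seen, and it was fitted with group and litter as terms over all 15 mice. The summed level was 615 ± 77.6 CPM in litter 1 (n = 4), 1026 ± 107 in litter 2 (n = 3), 849 ± 95.9 in litter 3 (n = 5) and 760 ± 139 in litter 4 (n = 3). Litters 1 and 2 both hold ctrl and cKO mice. Every litter 2 mouse (1141, 928 and 1009) was above every litter 1 mouse (603, 601, 535 and 722). Among ctrl mice alone the values were 603 and 601 against 1141 and 928.

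In litter 2 against litter 1, 15 of 54 members were called, and all 15 were higher in litter 2. Over all genes 0.734% of 27394 were called higher. The median log2 fold change of the members was 0.71 beside -0.01 over all genes, and 50 of 54 lay above 0. In 25 members all litter 2 mice lay above all litter 1 mice, which held for 4.16% of all genes. The calls were spread over all classes, with 3 H1, 3 H2A, 4 H2B, 2 H3 and 3 H4 genes. Class sums moved from 240 to 395 CPM for H1, from 144 to 229 for H2A, from 74.1 to 132 for H2B, from 26.8 to 46.0 for H3 and from 131 to 224 for H4.

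**Figure D4:**
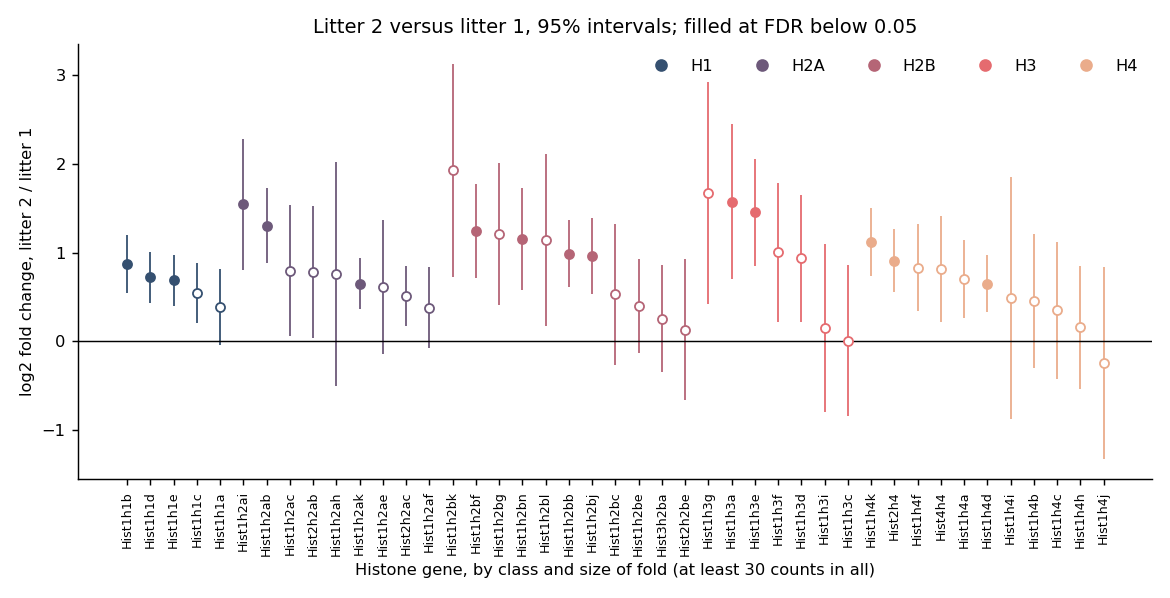
Log2 fold change of litter 2 against litter 1 for each member with at least 30 counts, grouped by histone class, with filled symbols at an FDR below 0.05. Nearly all symbols lie above 0, and the 15 called members run from 0.65 to 1.57.

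Hist1h2ab, an H2A gene, had the lowest adjusted p. Its CPM was 18.5, 11.4, 9.14 and 13.002 in the litter 1 mice 2, 6, 5 and 7 and 31.2, 23.9 and 30.8 in the litter 2 mice S3, S1 and S2. Its log2 fold change was 1.30 (SE 0.22, adjusted p = 7.03e-07, edgeR likelihood ratio test). The H4 gene Hist1h4k was at 16.8, 15.8, 13.001 and 20.8 in litter 1 and at 38.4, 30.9 and 36.6 in litter 2 (1.12, SE 0.19, adjusted p = 4.05e-06, same test). In both genes every litter 2 mouse was above every litter 1 mouse, ctrl and cKO alike.

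Of the 6 linker histone genes, 3 were called. Hist1h1b was at 33.6, 36.4, 29.0 and 39.8 CPM in litter 1 and at 79.4, 57.0 and 60.7 in litter 2 (0.87, SE 0.17, adjusted p = 5.16e-05, edgeR). Hist1h1d, the linker histone H1.3, rose by 0.72 and Hist1h1e, the linker histone H1.4, by 0.69. Hist1h1e, at 97.8 ± 16.7 CPM in litter 1 and 161 ± 24.7 in litter 2, was the member with the most counts. Hist1h1c lay higher in every litter 2 mouse than in any litter 1 mouse (51.0 ± 5.71 against 32.5 ± 8.27 CPM, 0.55) and missed the threshold (adjusted p = 0.115, edgeR).

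Among H2B genes, Hist1h2bb rose by 0.99 (20.5 ± 3.69 to 36.9 ± 12.7 CPM), Hist1h2bf by 1.24, Hist1h2bj by 0.96 and Hist1h2bn by 1.15. Of the H2A genes, Hist1h2ai rose by 1.54 and Hist1h2ak, the highest member per kilobase, by 0.65. Hist2h4 (0.91) and Hist1h4d (0.65) completed the H4 genes. The H3 genes Hist1h3e (1.45) and Hist1h3a (1.57) were called although 1 or more litter 1 mice reached the litter 2 range. The litters overlapped in Hist1h2ak and Hist1h2bn too.

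Without cKO S2, the mouse with the most counts, 7 of the 15 were called, and DESeq2 called 11 of them. Within batch 1 mice alone, where litter 2 kept only S3 and S2, all 15 remained among 18 calls. The share of all genes called is given for the main fit only, so these counts have no background beside them. The litters also differed in depth, from 574401 to 5301380 counts in litter 1 and from 1829617 to 8800987 in litter 2.

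**Figure D5:**
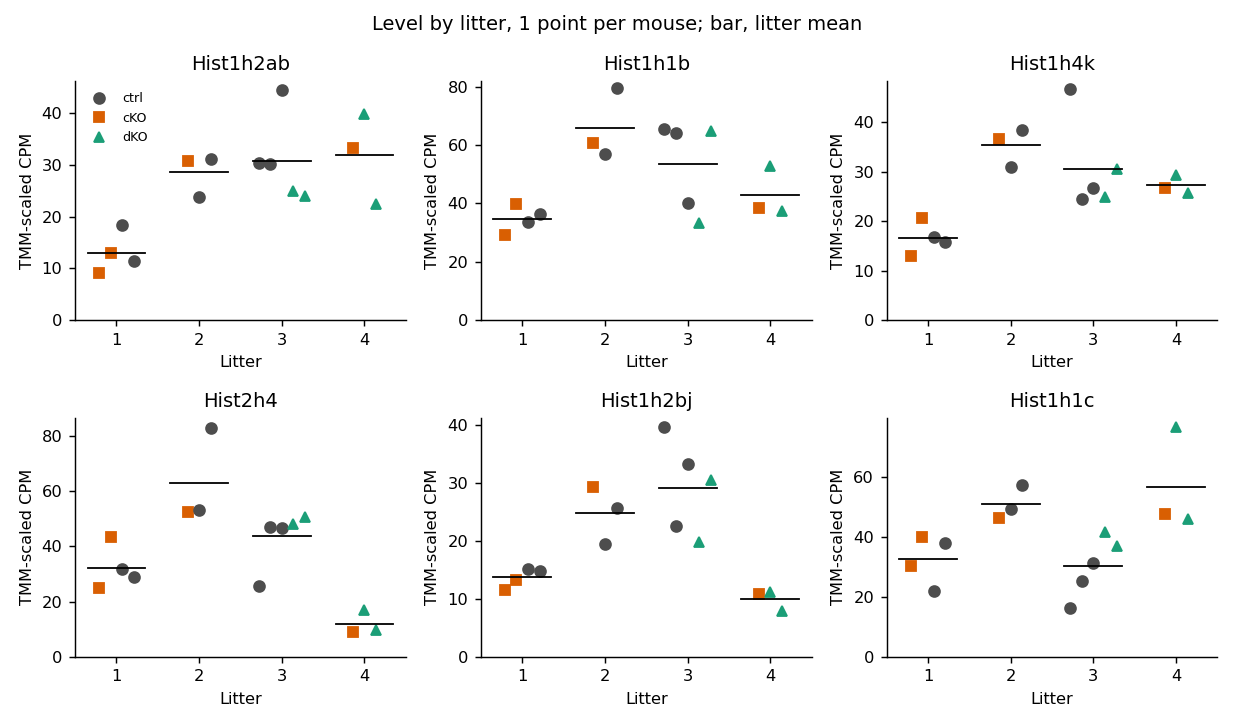
Level (CPM) of Hist1h2ab, Hist1h1b, Hist1h4k, Hist2h4, Hist1h2bj and Hist1h1c in each mouse by litter, coloured by group. In all 6 every litter 2 mouse lies above every litter 1 mouse, and Hist2h4 and Hist1h2bj have their lowest mean in litter 4.

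The promoters of the 4 members with the lowest adjusted p between litters 1 and 2 are shown as examples. A link between promoter sequence and the litter difference was not tested. They are the 150 bases before the RefSeq start in GRCm38.p6, 5' to 3' on the gene's strand, with the CCAAT box, the TATA box (TATAAA) and the octamer (ATTTGCAT) on either strand in capitals.
Hist1h2ab: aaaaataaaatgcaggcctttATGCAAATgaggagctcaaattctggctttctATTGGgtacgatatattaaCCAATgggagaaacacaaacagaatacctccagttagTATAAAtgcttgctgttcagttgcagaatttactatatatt
Hist1h4k: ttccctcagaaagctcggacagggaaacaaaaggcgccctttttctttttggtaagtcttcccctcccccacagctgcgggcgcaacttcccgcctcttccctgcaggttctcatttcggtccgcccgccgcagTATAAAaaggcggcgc
Hist1h1b: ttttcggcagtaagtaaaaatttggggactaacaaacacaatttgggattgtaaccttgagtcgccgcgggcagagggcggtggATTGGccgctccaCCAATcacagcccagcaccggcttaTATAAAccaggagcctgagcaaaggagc
Hist1h2bb: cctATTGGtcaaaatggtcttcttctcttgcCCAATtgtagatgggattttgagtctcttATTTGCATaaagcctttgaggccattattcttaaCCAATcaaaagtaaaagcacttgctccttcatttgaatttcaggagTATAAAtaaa

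They lie at chr13:23750938-23751087 (Hist1h2ab, plus strand), chr13:21750554-21750703 (Hist1h4k, minus strand), chr13:21780626-21780775 (Hist1h1b, minus strand) and chr13:23746584-23746733 (Hist1h2bb, plus strand). All 4 hold TATAAA, and CCAAT is present in all but the H4 promoter. The octamer is in the H2A and the H2B promoter. In windows from 250 bases before to 50 after the start, counted on both strands, the members with a RefSeq entry (49 members with 50 promoters) held CCAAT in 82.0%, against 37.4% of all 32851 promoters. TATAAA was in 64.0% against 13.6%, and ATTTGCAT in 18.0% against 1.74%. CCAAT was in every H1, H2A, H2B and H3 promoter but in only 3 of 12 of the H4 genes, and the octamer in 5 of 12 H2A and 4 of 11 H2B promoters and in none of the other classes. None of the matches shown overlaps another. A match describes the sequence and not a bound factor.

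Genes of S phase moved in the same direction between these litters. Of 27 measured, 6 were called, all higher in litter 2, and 27 of 27 lay above 0, with a median of 0.63. The called genes were the replication licensing gene Mcm3 (0.68), the ribonucleotide reductase subunit Rrm2 (0.85), the cyclins Ccne2 (1.14) and Ccna2 (0.71), Mki67 (0.67) and the topoisomerase gene Top2a (0.66). The summed level of the whole list was 837 to 1018 CPM in litter 1 and 1223 to 1395 in litter 2, without overlap. Cdt1 was listed at 0 in all mice. Of the 11 variants, H2afx, whose product marks DNA breaks when phosphorylated, was called (0.94, 15.7 to 31.3 CPM, adjusted p = 0.00178, edgeR), and the median was 0.43. The factors of histone mRNA itself gave 0 calls of 20: Slbp was at 0.51 (adjusted p = 0.652), Npat at 0.15 and Casp8ap2 at 0.40. The chaperones had 0 calls, with 17 of 20 above 0.

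Cell type markers also moved with the litters. Summed markers of apical progenitors were at 415 to 661 CPM in litter 1 and 574 to 691 in litter 2, where Pax6 (0.83) and Hes1 (1.21) were called higher and 5 of 7 were above 0. Sox2, a defining marker, was listed at 0 in all mice. Those of intermediate progenitors were at 313 to 446 and 438 to 497, with 0 called and 6 of 6 above 0. Most counts of this list were those of Elavl4 (11812 in all, against 2134 for Eomes and 1030 for Neurog2). Its sum therefore follows Elavl4 more than Eomes or Neurog2. Cortical neuron and tissue genes were at 1874 to 2245 and 1600 to 1824, without overlap. Microglia markers were at 17.4 to 26.0 and 7.60 to 13.3, with Csf1r called lower (-1.48) and 6 of 8 below 0. Markers of meninges and choroid plexus were at 4.27 to 58.6 and 1.63 to 3.59, with Ttr called lower. In litter 1, ctrl 6 had 168 counts of Ttr, and mice 2, 5 and 7 had 0, 1 and 4. Endothelium and pericyte markers were at 102 to 125 and 88.5 to 98.0, with 0 called and 0 of 7 above 0. The thalamus list was at 130 to 255 and 213 to 308, with Tcf7l2 called higher (0.51) and 4 of 4 above 0. It includes Lhx2, named above as a cortical gene, so its sum is not specific to thalamus. Lhx2 alone was at 67.8 to 154 CPM in litter 1 and 107 to 179 in litter 2. Interneuron and ganglionic eminence markers were at 2330 to 4334 and 2217 to 3018, with Dlx2 called higher (0.76) and 6 of 8 above 0. Most counts of the interneuron list were those of Erbb4 (90361 in all, against 12981 for Gad2), so its sum follows Erbb4 more than the other genes. Erythroid markers were at 15.5 to 23.5 and 17.9 to 28.9, with the embryonic globin gene Hbb-y called higher (0 to 1.75 against 4.61 to 8.76 CPM) and 4 of 7 above 0. Ribosomal and mitochondrial RNA took 0.847% to 1.67% of counts in litter 1 and 1.56% to 2.96% in litter 2. The part of these cells, of this share and of depth in the histone values was not tested.

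With all litters tested together, 19 of 54 members were called, against 4.11% of all genes. Litter 4 against litter 3 gave 4 called members, against 2.25% of all genes. Both litters hold dKO mice, but ctrl mice are in litter 3 only and cKO F3 is in litter 4 only. Hist2h4 was at 25.7, 47.1, 46.7, 48.1 and 50.8 CPM in the litter 3 mice T3, T4, T5, T2 and T8 and at 9.09, 16.9 and 9.70 in the litter 4 mice F3, F1 and F7. Its log2 fold change was -1.99 (SE 0.23, adjusted p = 5.32e-14, edgeR), the largest size of the 4. Hist1h2bj was at 29.2 ± 8.05 CPM in litter 3 and 10.01 ± 1.79 in litter 4 (-1.50). Both were thus low in the cKO and the dKO mice of litter 4 alike.

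Hist1h1c went the other way (0.77, adjusted p = 0.0220, edgeR; 30.3 ± 9.85 to 56.7 ± 17.4 CPM) and Hist1h2bf was lower (-1.16, adjusted p = 0.0415). With batch 3 mice alone, Hist2h4 and Hist1h2bj remained called and the other 2 did not, and the same held without cKO S2, ctrl T4, dKO T8, dKO F1 or cKO F3. Depth did not overlap between these litters (399832 to 1023405 and 3519529 to 5396803 counts). The share of a library's reads outside annotated genes was 5.62% to 6.74% in litter 3 and 6.74% to 10.9% in litter 4. Ribosomal and mitochondrial RNA took 0.85% to 1.27% of counts in litter 3 and 3.00% to 4.39% in litter 4. In this contrast Lsm11 (1.14, adjusted p = 0.0292, edgeR) and Lsm10 (adjusted p = 0.0468), which encode proteins of the U7 particle that cuts histone mRNA, were higher in litter 4, the 2 called of 20 in their list. Lsm10 had 1 count in T2, 1 in T4 and none in the other litter 3 mice, against 11 to 24 counts in the deeper litter 4 mice, so no fold is given.

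Other lists moved with these litters too. Of the S phase genes 1 was called, Pole, a subunit of the leading strand polymerase (-0.97), and 4 of 27 lay above 0, with a median of -0.42 and sums of 932 to 1260 CPM in litter 3 and 773 to 1073 in litter 4. Meninges and choroid plexus genes were at 23.2 to 97.9 and 6.21 to 16.3, with 3 of 6 called lower (Col1a1, Col1a2 and Ttr) and 0 of 6 above 0. Cortical neuron and tissue genes were at 1629 to 1844 and 1842 to 2261, with 2 of 8 called higher. Apical progenitor genes were at 527 to 640 and 464 to 607, with Vim called lower (-0.60). Endothelium and pericyte genes were at 87.9 to 181 and 115 to 121, with Cldn5 called lower (-1.51). The thalamus list, which includes the cortical gene Lhx2, was at 192 to 252 and 155 to 199.8, with Tcf7l2 called lower (-0.57). The other marker lists (intermediate progenitors, interneurons, microglia and erythroid cells) had 0 calls. The part of depth, of these cells and of the ribosomal and mitochondrial share in the histone values was not tested.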

How the data were processed

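The data are read counts per gene from UMI-tagged Click-seq libraries of embryonic cortex (16 libraries of 15 mice; both libraries of cKO S2 were summed). Per the submitters' processing notes and the study's methods, the authors used bcl2fastq 2.17, cutadapt 1.13, STAR 2.5.2a on GRCm38 (mm10), UMI-tools 0.5.3 and HTSeq 0.6.1p1 with intersection-nonempty, and edgeR 3.18.1. The deposited values are whole-number counts, not normalized. The annotation release and strand setting are not given in the sources used here. The 5 summary lines (21.55% to 38.68% of a library's reads) were left out of library sizes. GENCODE M21 matched 51719 of 51912 IDs. Of the histone symbols, 3 are not protein coding and were not used, and 2 protein-coding ones (Hist1h2bh and Hist1h2bm) are not analysed here.

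Each pair of groups was fitted in R 4.3.3 with edgeR 4.0.16 (TMM, estimated dispersion, likelihood ratio test), with Benjamini-Hochberg adjustment over all listed genes and a call at FDR below 0.05. CPM is scaled by TMM. Scripts were tested on simulated data. The members and gene lists were chosen with earlier results of these data known. Genes named are the 10 highest per kilobase, the Hist3 and Hist4 members, called members, and per genotype comparison the 3 smallest unadjusted p in each direction. Litter comparisons and the genes named in them were chosen after seeing the data. Mice are separate embryos by label, so p-values rest on the spread between mice. The main genotype fits had no litter term, so this spread includes differences between litters. Litter comparisons took mice as the replicates, so their p-values do not measure the spread from litter to litter. Alternatives were edgeR's quasi-likelihood test, DESeq2 1.42.0, other scalings and filters, sex, batch and litter terms, single batches and leaving out each mouse. Single values of some marker genes are not reported here. Promoters are RefSeq's (GRCm38.p6).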

Additional observations from a re-analysis of the deposited data

Results flagged for a closer look

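Of 70 groups of 4 to 7 mice tested, 8 had a highest mouse that stood apart from the rest by Dixon's criterion. Chance meets it in about 1 in 20 groups where values are normally distributed. That rate does not hold for groups with few counts or tied at 0, so the 8 are not read as an excess. Among dKO mice, F1 was high for Hist1h2ab at 39.8 CPM (next 24.9), and T2 for Hist2h3c2 at 3.32 CPM (next 0.388) from 2 counts. F1 was also the only dKO mouse with a count of Hist1h2ad, at 0.302 CPM. Among ctrl mice, S3 was high for Hist1h2ak at 118 CPM (next 79.4) and was the only one with a count of Hist1h3b, at 0.512 CPM. T4 was high for Hist1h2bb at 45.2 CPM (next 29.7) and T5 for Hist1h4c at 20.01 CPM (next 5.43). Among cKO mice, S2 was high for Hist1h2bj at 29.4 CPM (next 13.3), and without S2 this gene was called lower in cKO than in ctrl. S2 was the only cKO mouse of litter 2, and the other cKO mice came from litters 1 and 4. Litter means of Hist1h2bj over all groups were 13.7, 24.8, 29.2 and 10.01 CPM for litters 1 to 4. With all mice and litter as a block, its log2 fold change in cKO against ctrl was 0.0707.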

How the results depend on the processing

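The 3 genotype comparisons gave 0 called members under nearly all settings. The exceptions were edgeR's quasi-likelihood test in dKO against ctrl (1 call) and the fit of cKO against ctrl without cKO S2 (2 calls). Leaving out each mouse gave 0 to 2 calls in cKO against ctrl, 0 to 0 in dKO against ctrl and 0 to 0 in cKO against dKO. It gave 7 (without cKO S2) to 18 calls in litter 2 against litter 1, 13 (without cKO S2) to 22 for any litter and 2 (without cKO S2, ctrl T4, dKO T8, dKO F1 or cKO F3) to 4 in litter 4 against litter 3, where batch 3 mice alone gave 2. The log2 ratio of summed levels ran from -0.31 to -0.0026 in cKO against ctrl, from -0.15 to 0.05 in dKO against ctrl, from -0.25 to 0.06 in cKO against dKO and from 0.66 to 0.82 in litter 2 against litter 1. Directions of single genes turned with the litter block in Hist1h2bj (cKO against ctrl, 0.0707), Hist1h4a (0.25), Hist1h2af (0.0029) and Hist2h4 (0.27, all dKO against ctrl) and Hist1h2ai (cKO against dKO, 0.18). They also turned with a batch term or within 1 batch in Hist1h2bf (cKO against ctrl, 0.0320), Hist1h2af (-0.00628) and Hist1h2ai (0.25 in both fits, cKO against dKO). The cause was not tested. The replicate numbers do not pair the groups, but litters do: litters 1 and 2 hold ctrl and cKO mice, litter 3 ctrl and dKO, and litter 4 cKO and dKO. The litter block gave 0 calls in each genotype comparison. The shallowest library limits what members with few counts can show. Shares of all genes called are given for the main fits only.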
